A study of Mus musculus with 2 samples.

Results

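The 8 loci described here, Shisal1, St6galnac3, Rin3, Grm4, Prune2, Ttc7b, Lipc and Trabd2b, are mouse genes around which several stretches of chromatin were more open in basal epidermal cells after ablation than in control. A peak belonged to a locus when it overlapped the gene in build mm10, or lay within 50 kb of it with no protein-coding gene nearer. By that rule the 8 loci hold 126 of the 84594 distinct peaks in the deposited table. The loci were chosen by the ratio of ablation to control signal at their peaks, so those ratios are given below as a description and support nothing. The ATAC-seq series has 1 library of basal cells from epidermis with the genotype label basal lineage ablation and 1 library from the wild-type control, both titled K14, the name of a keratin of basal keratinocytes. In both, cells were sorted for high α6 integrin, for absence of CD34 and Lrig1, and for the fluorescent reporters. The sources used here name neither the agent of ablation nor the time after it, the age of the mice or how many animals went into a library. The control column of the table carries another number than the title of the control sample, and was matched to it as the only control. Mitochondrial peaks, left out below, took 31.2% of reads in peaks in ablation and 7.31% in control, and their part in the results was not tested.

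ATAC-seq uses a transposase that inserts sequencing adapters into open DNA, so that a peak marks a stretch where nucleosomes give way to other proteins, such as a promoter or an enhancer. Enhancers are often spread through the introns and flanks of a gene, and several can act on one promoter. The 8 genes share no known pathway. Lipc, Trabd2b and Ttc7b act on lipids or on lipid-modified ligands: Lipc is the secreted hepatic lipase that hydrolyses lipoprotein lipids, Trabd2b (Tiki2) is a membrane protease that trims the amino terminus of Wnt proteins and so inactivates them, and Ttc7b is a scaffold of the complex that holds the lipid kinase Pi4ka at the plasma membrane. Rin3 and St6galnac3 work in membrane traffic and glycosylation, Rin3 as an activator of Rab5 GTPases in early endocytosis and St6galnac3 as a Golgi enzyme that adds sialic acid to N-acetylgalactosamine. Grm4 is a metabotropic glutamate receptor known from synapses, Prune2 is a BCH-domain protein studied in the nervous system, and Shisal1 is a small membrane protein of the Shisa-like group.

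Signals are normalized reads, that is, the reads of a peak scaled by a factor of its library. A peak was tested for size when its mean over both libraries reached 13.96, the 10th percentile of nuclear peaks, and it was called higher or lower when the log2 ratio of ablation to control, with 1 added to both signals, reached 1 in size (2-fold). Folds in the text are ratios of the signals themselves, with exact 95% intervals from the recovered reads. These intervals cover counting error only, and copies of one molecule made by PCR are not independent. Each group has 1 library, so differences have no replicate check and no p-value is given. The ablation library had 12463908 reads in nuclear peaks and the control library 17056996, and 1 read is worth 0.907 normalized reads in ablation and 0.706 in control. A count of 0 reads allows up to 2.72 normalized reads in ablation and 2.12 in control. Fewer open cells and less opening per cell cannot be told apart in such bulk libraries.

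Of the 126 peaks, 113 passed the filter. Of these 44 were higher in ablation and 1 was lower, where 4.48% of all 76147 tested peaks were higher and 1.88% lower. The rule used this contrast, so nothing is read from the difference. At 1.5-fold the count was 62, where 13.0% of all tested peaks were higher, and at 3-fold it was 15, where 0.876% were. When the libraries are scaled to their totals in the whole table, mitochondrial peaks included, which moves the median log2 ratio of all tested peaks to -0.35, 22 were higher at 2-fold, where 1.76% of all tested peaks were. The median log2 ratio was 0.66 over the 113 member peaks and -0.01 over all tested peaks. Every one of the 44 higher peaks had a counting interval above 1, but the call used the same reads, so this adds no support. Among the 13 peaks under the filter, 5 had a ratio of at least 2-fold in favour of ablation and 1 in favour of control, all from few reads. The furthest of them lay in Grm4 at chr17:27422592-27422906, with 20 reads in ablation and 3 in control.

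**Figure D1:**
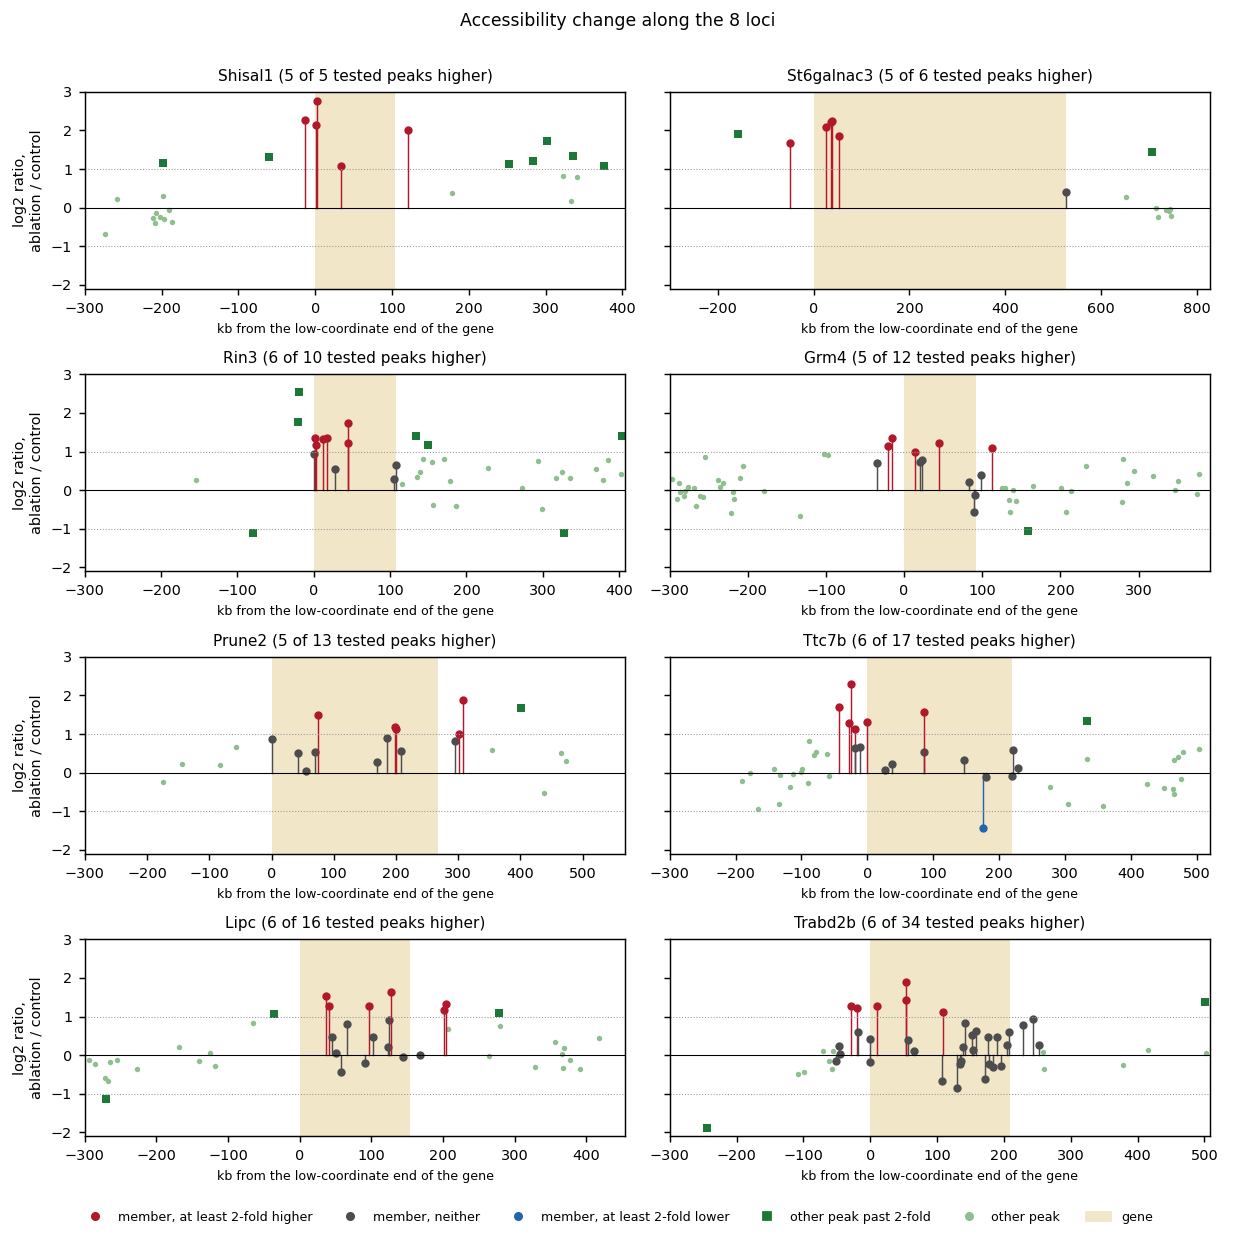
Log2 ratio of ablation to control (vertical axis) of every tested peak along the 8 loci and 300 kb to each side, against distance in kb from the low-coordinate end of the gene. Red, grey and blue stems are member peaks that were at least 2-fold higher, neither, or at least 2-fold lower, green marks are peaks of other genes or of none, and the shaded band is the gene. In Shisal1 all 5 stems are red, whereas in Trabd2b 6 of 34 are.

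Promoter windows of the 5 genes that have one in the RefSeq table are shown because none of the 28 higher peaks in these genes overlaps an annotated start. Where a gene has several windows, the first listed is given. Windows run from 250 bases before to 50 bases after the start, 5′ to 3′ on the strand of the gene, in GRCm38.p6, the assembly behind mm10. Capitals mark matches on either strand to any of 5 short motifs, namely TGANTCA for AP-1, GGAATG for TEAD, GGGCGG for SP and KLF factors, TGTGGT for RUNX and TGACGTCA for CRE. No match of one overlapped a match of another in these windows. For Rin3 (chr12:102282824-102283123, plus strand), Prune2 (chr19:16955868-16956167, plus), St6galnac3 (chr3:153725084-153725383, minus) and Ttc7b (chr12:100520788-100521087, minus) a deposited peak covers the window, and for Lipc (chr9:70952172-70952471, minus) none does.
Rin3: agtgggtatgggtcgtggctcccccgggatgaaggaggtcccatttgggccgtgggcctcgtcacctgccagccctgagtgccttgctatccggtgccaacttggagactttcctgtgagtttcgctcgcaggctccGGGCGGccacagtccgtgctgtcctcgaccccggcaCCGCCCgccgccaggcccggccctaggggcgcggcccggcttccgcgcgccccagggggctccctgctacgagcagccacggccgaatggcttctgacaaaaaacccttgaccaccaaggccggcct
Prune2: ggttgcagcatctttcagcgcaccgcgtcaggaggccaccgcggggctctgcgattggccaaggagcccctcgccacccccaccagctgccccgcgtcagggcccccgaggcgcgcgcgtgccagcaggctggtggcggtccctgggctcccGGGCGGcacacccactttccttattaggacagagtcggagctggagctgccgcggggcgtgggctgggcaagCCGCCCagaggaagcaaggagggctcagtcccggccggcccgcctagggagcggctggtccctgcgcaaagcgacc
St6galnac3: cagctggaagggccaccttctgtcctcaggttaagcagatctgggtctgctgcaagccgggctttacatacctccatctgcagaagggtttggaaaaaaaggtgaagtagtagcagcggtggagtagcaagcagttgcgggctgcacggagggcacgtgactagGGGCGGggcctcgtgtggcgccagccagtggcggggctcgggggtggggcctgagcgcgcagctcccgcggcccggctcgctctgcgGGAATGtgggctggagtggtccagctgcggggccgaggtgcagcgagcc
Ttc7b: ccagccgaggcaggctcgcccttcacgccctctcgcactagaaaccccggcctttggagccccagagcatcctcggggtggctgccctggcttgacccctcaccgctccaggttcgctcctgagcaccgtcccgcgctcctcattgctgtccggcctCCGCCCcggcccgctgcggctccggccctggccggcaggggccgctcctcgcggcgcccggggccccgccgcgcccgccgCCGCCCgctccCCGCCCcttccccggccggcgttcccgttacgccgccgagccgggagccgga
Lipc: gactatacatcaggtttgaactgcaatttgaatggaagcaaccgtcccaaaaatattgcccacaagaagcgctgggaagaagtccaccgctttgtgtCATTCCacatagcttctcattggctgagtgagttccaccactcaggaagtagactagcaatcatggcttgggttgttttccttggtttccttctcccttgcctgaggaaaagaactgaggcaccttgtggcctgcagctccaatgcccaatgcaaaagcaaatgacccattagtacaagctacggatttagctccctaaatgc

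The 4 windows under a peak were rich in G and C, with 69.0% in Rin3, 72.7% in Prune2, 66.0% in St6galnac3 and 78.0% in Ttc7b, against a median of 52.7% over 32851 windows of the same length. They held 26, 28, 20 and 40 CpG dinucleotides in that order, where the median window had 7. The Lipc window had 47.0% and 4 CpG. All 4 windows under a peak held GGGCGG, as did 35.7% of all windows. GGAATG occurred in St6galnac3 and Lipc and in 14.7% of all windows. TGANTCA, found in 7.81% of all windows, TGTGGT, found in 16.8%, and TGACGTCA, found in 1.79%, had no match in any of the 8 windows listed for these genes. A match is a run of letters and not a bound site.

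The peaks over these starts were all under 2-fold. The Rin3 start peak had 127.9 normalized reads in ablation and 66.3 in control, 1.93-fold (1.47 to 2.53), just short of the threshold. At the Prune2 start the values were 66.2 in ablation and 36.0 in control, 1.84-fold (1.27 to 2.68). At the St6galnac3 start they were 61.7 and 46.6, 1.32-fold with an interval that includes 1 (0.93 to 1.89). Across the Ttc7b start the signal was 140.6 in ablation and 151.0 in control, 0.931-fold (0.752 to 1.15). The start peaks of these 4 genes thus ran from nearly 2-fold higher to slightly lower, while other peaks of the same genes were called higher. Over the 8 loci, 12 tested peaks reached to less than 1 kb from a gene's end, and 2 of them were higher, 1 at the low-coordinate end of Shisal1 and 1 past the downstream end of Ttc7b. Of the 101 peaks further from the ends 42 were higher. The 12 had a median signal of 67.0 and the 101 of 44.1. Of the 12, 0 came from the first run of the table (described below), and of the 101, 32. In that run 31.2% of all tested peaks were higher. Gene ends of other genes were not read, so nothing is drawn from the difference.

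Shisal1, on chromosome 15 at 84379203 to 84482860, had 5 tested peaks and all 5 were higher in ablation. The strongest lay 12107 bp beyond the low end of the gene at chr15:84365750-84367096, with 158.7 normalized reads in ablation and 32.5 in control, 4.89-fold (3.52 to 6.92). Just inside the gene, chr15:84380160-84380747 had 131.5 and 28.9 (4.55-fold, 3.19 to 6.60), and 356 bp on, chr15:84381103-84381299 had 29.9 and 3.53 (8.48-fold, 3.29 to 27.8, from 33 and 5 reads). These neighbouring peaks may be parts of one open stretch. Another intragenic peak at chr15:84412442-84413090 was lowest of the 5, with 68.0 and 31.8 (2.14-fold, 1.46 to 3.17). The fifth, 17124 bp beyond the high end, had 68.0 and 16.2 (4.19-fold, 2.60 to 7.01). Summed over the locus the signal was 456 in ablation and 113 in control, 4.04-fold (3.38 to 4.86), the highest of the 8 loci. The gene's strand is not in the tables used here, so its ends are not called start or end.

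St6galnac3, on chromosome 3 at 153198274 to 153725133 and at 527 kb the longest of the 8 genes, had 5 of 6 tested peaks higher. They gather near its downstream end, 474 to 576 kb from the start, and none lies near the start. The 4 intragenic ones fall within a stretch of about 27 kb. The strongest of these, chr3:153234612-153235248, had 79.8 normalized reads in ablation and 16.2 in control, 4.92-fold (3.08 to 8.16). The peaks at chr3:153223680-153223962 and chr3:153237045-153237410 had 24.5 and 27.2 in ablation against 4.94 in control at both, from 7 control reads each. At chr3:153250741-153250935 the values were 28.1 and 7.06, and 49105 bp past the gene at chr3:153148938-153149169 they were 33.6 and 9.88, where the peak overlaps the lncRNA 4930482G09Rik. All 5 are weak peaks, with folds from 3.40 to 5.51. A further 2 of the 3 peaks under the filter had ratios above 2-fold. The summed signal was 255 in ablation and 89.6 in control, 2.84-fold (2.3 to 3.54).

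Rin3, on the plus strand of chromosome 12 at 102282840 to 102390854, had 6 of 10 tested peaks higher, all inside the gene and within its first 46 kb. The strongest, 3.54 kb from the start at chr12:102285756-102287014, had 181.4 normalized reads in ablation and 80.4 in control, 2.25-fold (1.78 to 2.86). Close by, chr12:102283861-102284317 had 55.3 and 21.2 (2.61-fold), chr12:102295171-102295411 had 24.5 and 9.17 (2.67-fold), and chr12:102299299-102300170 had 84.4 and 32.5 (2.60-fold). The peak with the highest ratio, chr12:102327623-102328661, had 109.7 and 32.5, 3.38-fold (2.39 to 4.86), and the one 288 bp before it had 29.0 and 12.0. All 10 tested peaks of Rin3 had ratios above 1, the lowest being 22.7 and 18.3 at chr12:102387375-102387801 (1.24-fold, 0.685 to 2.23) near its far end. The summed signal was 684 in ablation and 304 in control, 2.25-fold (1.99 to 2.54). Unlike in most of the loci, the higher peaks of Rin3 were stronger than its other peaks, with median signals of 48.3 and 21.2.

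Grm4, on chromosome 17 at 27422387 to 27513826, had 5 of 12 tested peaks higher, 3 of them outside the gene. Beyond its low end, chr17:27406681-27407584 had 267.6 normalized reads in ablation and 105.1 in control, 2.54-fold (2.08 to 3.12), the strongest higher peak of all 8 loci, and chr17:27401936-27402506 had 137.0 and 61.4 (2.23-fold, 1.70 to 2.94). Beyond the high end, chr17:27534643-27535278 had 70.7 and 32.5 (2.18-fold, 1.49 to 3.21). Inside the gene, chr17:27466621-27466856 had 20.9 and 8.47 and chr17:27435722-27436130 had 33.6 and 16.2. The last of these, at 2.07-fold (1.20 to 3.64), lay just inside the threshold. At the high end of the gene body the order was the other way round: chr17:27511928-27512418 had 32.7 in ablation and 48.7 in control, 0.671-fold with an interval that includes 1 (0.435 to 1.02), and the peak on the end itself 88.9 and 97.4. The summed signal was 784 in ablation and 462 in control, 1.70-fold (1.53 to 1.88), and with peaks inside the gene alone its log2 ratio was 0.18 in place of 0.76.

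Prune2, on the plus strand of chromosome 19 at 16955668 to 17223963, had 5 of 13 tested peaks higher. The highest ratio lay downstream, 39234 bp past the gene at chr19:17263197-17264074, with 91.6 normalized reads in ablation and 24.0 in control, 3.82-fold (2.57 to 5.81). Close to it, chr19:17256524-17257304 had 81.6 and 40.2, 2.03-fold (1.44 to 2.88) and just inside the threshold. Inside the gene, chr19:17029200-17029895 had 31.7 and 10.6, chr19:17153327-17154210 had 49.0 and 21.2 and chr19:17156209-17156450 had 22.7 and 9.88. All 13 tested peaks had ratios above 1. The strongest peak of the gene, chr19:17011189-17012005, was also the one with the lowest ratio, at 171.4 and 165.8 (1.03-fold, 0.849 to 1.26). Right beside the higher peak chr19:17029200-17029895, which had 35 reads in ablation and 15 in control, the filtered peak chr19:17029028-17029188 had 5 and 21. These 2 peaks may be parts of one open stretch, and the call of the higher one was made without the reads of the other. The summed signal was 1171 in ablation and 728 in control, 1.61-fold (1.48 to 1.75).

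Ttc7b, on the minus strand of chromosome 12 at 100300770 to 100520837, had 6 of 17 tested peaks higher and 1 lower, the only lower one among the 113. Of the 6, 5 lay downstream of the gene within 43 kb of its end. The furthest by ratio, chr12:100275941-100276127, had 28.1 normalized reads in ablation and 4.94 in control, 5.69-fold (2.46 to 15.3), from 31 and 7 reads. Around it chr12:100257875-100258060 had 25.4 and 7.06, chr12:100272942-100273412 had 68.0 and 27.5, chr12:100281583-100281892 had 24.5 and 10.6, and chr12:100299233-100299847 had 53.5 and 21.2. The peaks chr12:100281583-100281892 and chr12:100299233-100299847 overlap the lncRNA Gm10432. The sixth, chr12:100386961-100387707 in the gene body, had 54.4 and 17.6 (3.08-fold, 1.91 to 5.13). The lower peak, chr12:100476213-100476739, had 32.7 in ablation and 90.3 in control, 0.361-fold (0.243 to 0.527). The strongest peak, chr12:100326612-100327258, had 360.1 and 345.1 (1.04-fold, 0.912 to 1.19). The summed signal was 1301 in ablation and 1097 in control, 1.19-fold (1.10 to 1.27), and its log2 ratio of 0.25 became -0.10 with the table total.

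Lipc, on the minus strand of chromosome 9 at 70798128 to 70952221, had 6 of 16 tested peaks higher. The 4 inside the gene were chr9:70834562-70835250, with 90.7 normalized reads in ablation and 31.1 in control (2.92-fold, 2.03 to 4.26), chr9:70838639-70838845 with 35.4 and 14.1, chr9:70895039-70895722 with 74.4 and 30.3, and chr9:70925189-70925561 with 41.7 and 12.7 (3.28-fold, 1.87 to 6.02). The last of these also overlaps the lncRNA Gm32017. Upstream of the start, chr9:70998710-70999049 had 34.5 and 14.8 and chr9:71001609-71002270 had 63.5 and 24.7, both close to the 50 kb limit of the rule. The strongest peak of the locus was not among them: chr9:70888201-70889768 had 401.8 in ablation and 461.5 in control (0.871-fold, 0.770 to 0.984). The lowest ratio was 0.720-fold at chr9:70855883-70856160, with 12.7 and 17.6 and an interval that includes 1 (0.346 to 1.44). The summed signal was 1586 in ablation and 1367 in control, 1.16-fold (1.09 to 1.24), and its log2 ratio of 0.21 became -0.13 with the table total. Just outside the threshold, the peak at chr9:70922032-70922668 had 38.1 in ablation and 19.8 in control (1.93-fold).

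Trabd2b, on chromosome 4 at 114406682 to 114615098, had the most peaks, with 6 of 34 tested peaks higher and a summed signal that was nearly equal, 3171 in ablation and 3176 in control (0.999-fold, 0.955 to 1.04). The strongest higher peak, chr4:114386226-114386961, lay 19721 bp outside the gene with 128.8 normalized reads in ablation and 55.0 in control, 2.34-fold (1.76 to 3.13). The highest ratio was in the gene body at chr4:114460500-114460693, with 29.0 and 7.06 (4.11-fold, 1.97 to 9.38), 599 bp from chr4:114459751-114459901 with 24.5 and 8.47. The remaining 3, chr4:114378484-114378898, chr4:114416632-114417023 and chr4:114515398-114515643, had 23.6, 27.2 and 29.0 in ablation against 9.17, 10.6 and 12.7 in control in that order. The peak chr4:114416632-114417023 overlaps the lncRNA Gm33710. The strongest peak of the locus, chr4:114355787-114356719, had 314.7 in ablation and 350.0 in control (0.899-fold, 0.782 to 1.03). The 6 higher peaks held 8.27% of the locus signal in ablation and 3.24% in control. Some strong peaks were below 1 beyond counting error without reaching 2-fold, as at chr4:114577834-114578737 with 259.4 and 395.9 (0.655-fold, 0.566 to 0.757) and chr4:114513870-114514507 with 133.3 and 212.4 (0.628-fold, 0.512 to 0.767). The lowest ratio was 0.532-fold at chr4:114536151-114536340, from 10.9 and 20.5 with an interval that includes 1 (0.247 to 1.07).

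**Figure D2:**
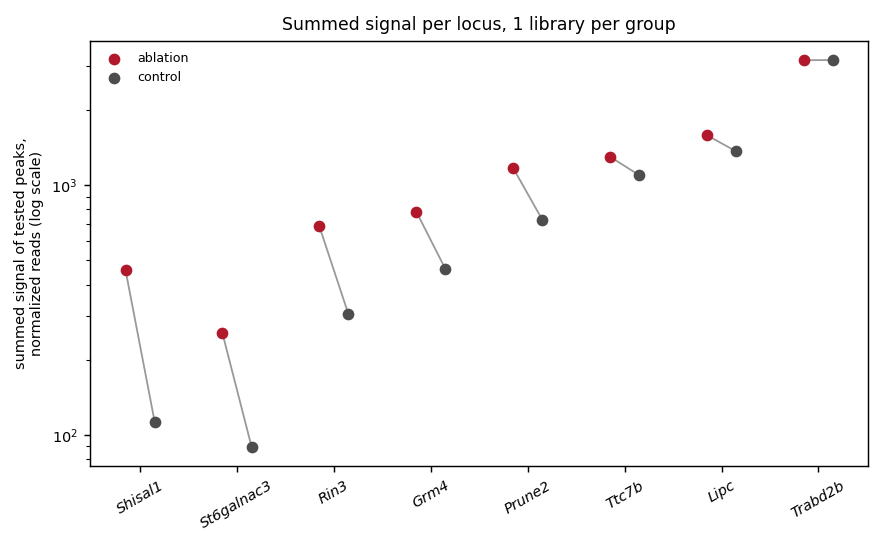
Summed signal of the tested peaks of each locus in normalized reads (vertical axis, log scale), with the ablation library (red) left of the control library (grey) and a line joining them. The distance between the points shrinks from Shisal1, at 4.04-fold, to Trabd2b, at 0.999-fold.

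The loci therefore differ in what their higher peaks add up to. Summed over all 8, the signal was 9407 in ablation and 7336 in control, 1.28-fold (1.25 to 1.32), and 7 of the 8 sums were above 1 in ratio. The log2 ratio of this total, 0.36, became 0.02 with the table total. In Shisal1, St6galnac3, Rin3 and Grm4, whose control sums were the lowest, the higher peaks held 67.6% to 100.0% of the ablation signal. In Prune2, Ttc7b, Lipc and Trabd2b they held 8.27% to 23.6%. The strongest peak of each of these 4 loci had a ratio between 0.871-fold and 1.04-fold, but other strong peaks departed from 1, as at chr19:17140230-17140861 in Prune2 with 205.0 in ablation and 109.4 in control (1.87-fold, 1.52 to 2.31). Median signal was 31.1 for the 44 higher peaks, 56.0 for the other 69 and 66.1 over all tested peaks. In Grm4, as in Rin3, the higher peaks were the stronger ones, with medians of 51.6 and 27.9. In St6galnac3, Prune2, Ttc7b, Lipc and Trabd2b they were the weaker ones, as in Trabd2b with 18.5 and 61.9.

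**Figure D3:**
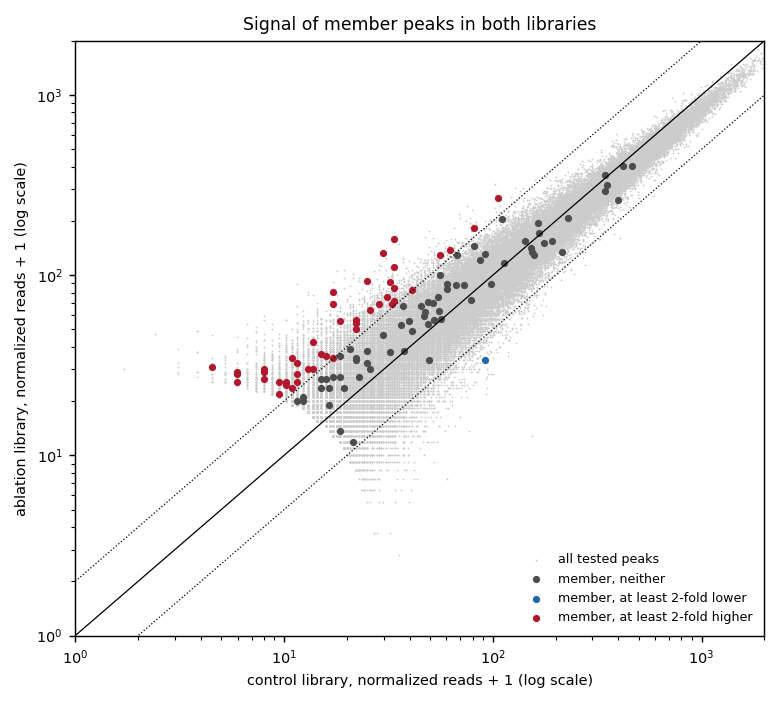
Normalized reads plus 1 in the ablation library (vertical axis) and in the control library (horizontal axis), both log scales, for the 113 tested member peaks and, in pale grey, all 76147 tested peaks. The solid line is equality and the dotted lines are 2-fold. The 44 higher member peaks (red) have a median mean signal of 31.1 against 56.0 for the other member peaks, and reach up to the Grm4 peak at 267.6 in ablation and 105.1 in control.

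Position, width and table order were no part of the rule. Of the 44 higher peaks 27 lay in the gene body and 17 outside it, where 80 and 33 were tested. The higher peaks were narrower, with a median width of 463 bp against 625 bp for the other member peaks and 595 bp over all tested peaks. The deposited table consists of 3 runs of rows, each in order of peak name, whose meaning is not stated. In the first run 31.2% of tested peaks were higher, in the second 0.264% and in the third 2.44%. Width differed between the runs, with medians of 299 bp in the first, 243.5 bp in the second and 657 bp in the third. Member peaks had medians of 324 bp in the first run and 648 bp in the third. The part of the run in the narrower width of the higher peaks was not tested, and no width of higher peaks outside the loci is given here. The member peaks came from the first run in 32 cases (23 higher), from the second in 2 (0 higher) and from the third in 79 (21 higher). The first run made up 52.3% of the higher member peaks and 13.0% of the others, where it made up 52.5% of all higher peaks and 7.53% of all tested peaks. The share among the higher member peaks is thus that of higher peaks in general. The part of the run in the ratios was not tested. Read by signal, the members held 22 peaks in the lowest decile of all tested peaks, of which 14 were higher where 14.1% of all peaks in that decile were. In decile 5, 8 of 20 were higher where 3.7% of all were, and in the top decile 0 of 2. The loci were chosen by the ratios behind these calls. An excess of higher member peaks within runs and deciles therefore follows from the choice, and nothing is read from it. All 5 higher peaks of St6galnac3 were from the first run, while 5 of 6 in Lipc were from the third.

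Of the 16272 genes with a tested peak, 17 (0.104%) had 5 or more higher peaks, a count the choice of loci fixed for the 8 members among them. Rin3, Ttc7b, Lipc and Trabd2b had 6. Just outside, 35 genes had 4. The 5 other genes most like the members by their count of higher peaks, with none lower and ties ordered by the ratio of summed signal, were Elk3, an ETS transcription factor, with 6 of 14, Wnt7a, a Wnt ligand, with 6 of 12, Scnn1b, a subunit of the epithelial sodium channel, with 5 of 9, Prdm16, a transcriptional regulator, with 5 of 11, and Mrtfa, an actin-regulated coactivator of serum response factor, with 5 of 25. Their summed ratios were 1.81-fold, 1.77-fold, 1.73-fold, 1.72-fold and 1.05-fold in that order. Ppp3ca, with 5 of 33 higher, and Slit3, with 5 of 31, had as many higher peaks as Scnn1b, Prdm16 and Mrtfa and none lower, and came after them in that order with 1.0-fold (0.96 to 1.05) and 0.936-fold (0.892 to 0.983), the last below all 8 members. The condition of none lower, which the member Ttc7b does not meet, left out Fhod3 and Tenm4. Fhod3 had 5 of 29 higher and 1 lower, with a summed ratio of 1.29-fold (1.22 to 1.37). Tenm4 had 5 of 47 higher and 1 lower, with 0.997-fold (0.962 to 1.03). The likeness covers 2 libraries only.

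**Figure D4:**
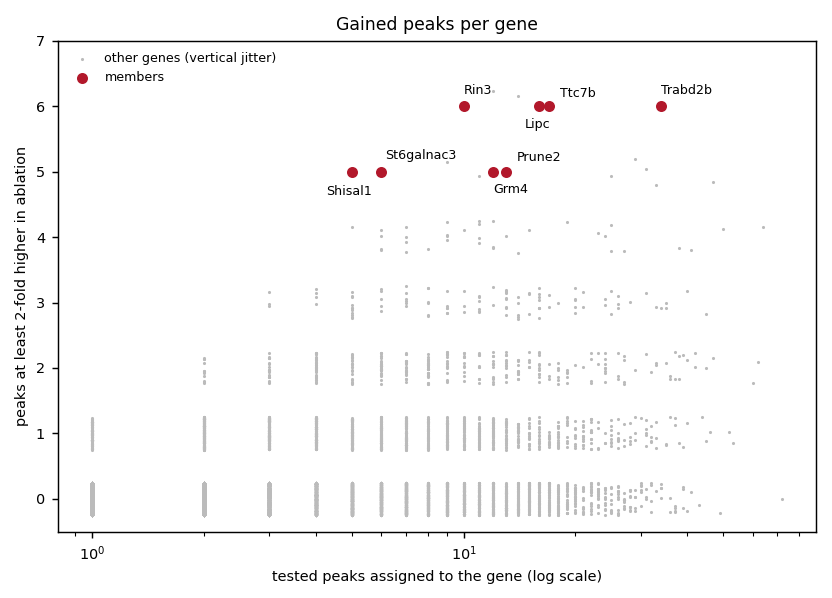
Peaks at least 2-fold higher in ablation (vertical axis) against tested peaks assigned to the gene (horizontal axis, log scale) for all 16272 genes, with the 8 members in red. Shisal1 and St6galnac3 reach 5 higher peaks from 5 and 6 tested, Trabd2b needs 34 for 6.

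Neighbouring genes took no part in the choice. For each locus these were the 3 nearest protein-coding genes with a tested peak on each side, 48 genes in all with 182 peaks. Of the 182 peaks 18 (9.89%) were higher and 5 lower, against 4.48% and 1.88% of all tested peaks. The median log2 ratio was 0.02 over the neighbouring peaks. Over the 48 genes the median log2 ratio of summed signal was -0.06, near the -0.07 of all genes. Of the 18 higher peaks, 11 belonged to neighbours of Shisal1 and Rin3. Without the neighbours of Shisal1 the share of higher peaks was 6.75%, without those of Rin3 8.54%, and without both 4.83%. These loci were left out because their shares were the highest, so the share had to fall. The difference from all tested peaks was not tested.

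Around Shisal1, 7 of 19 neighbouring peaks were higher and 0 lower. Prr5, a subunit of the mTORC2 kinase complex 180.3 kb away, had 3 of 5 peaks higher. The strongest of them, chr15:84680595-84681628, had 68.0 normalized reads in ablation and 19.8 in control, 3.44-fold (2.20 to 5.52). Arhgap8, next to Prr5, had 2 of 3 higher, with 74.4 and 28.9 at chr15:84714179-84715170. Parvb, an actin-binding adaptor of focal adhesions on the other side, had its only tested peak higher at 41.7 and 16.2. Further out on that side Pnpla3, a lipid hydrolase, had 1 of 8 higher, and Samm50, a mitochondrial outer membrane protein, stood at 464 in ablation and 599 in control (0.775-fold, 0.693 to 0.866). Within 500 kb 8 of 33 peaks of other genes or of none were higher.

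Around Rin3, 4 of 18 neighbouring peaks were higher and 1 lower. Slc24a4, a cation exchanger 15.7 kb before Rin3, had 2 adjoining peaks higher, chr12:102262684-102263191 with 66.2 normalized reads in ablation and 10.6 in control (6.26-fold, 3.56 to 11.7) and chr12:102261769-102262464 with 94.3 and 26.8 (3.52-fold, 2.40 to 5.24). Its peak further off, chr12:102202938-102203314, was the lower one, at 11.8 and 26.8. Lgmn, the lysosomal protease legumain on the other side, had 2 of 9 higher, with 46.3 and 16.9 at chr12:102416416-102416792. Beyond it, Golga5, a golgin, stood at 421 in ablation and 529 in control (0.795-fold, 0.707 to 0.894). Between the last higher peak of Rin3 and those of Lgmn, the peak at the far end of Rin3, chr12:102390011-102390363, had 22.7 and 14.1 (1.61-fold, 0.857 to 3.05).

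At the other 6 loci 7 of 145 neighbouring peaks were higher. Grm4 had 0 of 30 neighbouring peaks higher and 1 lower, in Nudt3, and within 500 kb 0 of 88 were higher. Ttc7b had 1 of 38, in the kinase gene Rps6ka5. Lipc had 2 of 24, 1 in the membrane protease gene Adam10 and 1 outside the water channel gene Aqp9, and 1 lower near Sltm. Prune2 had 2 of 23, in the glycosyltransferase gene Gcnt1, at 54.4 normalized reads in ablation and 16.2 in control (3.35-fold, 2.04 to 5.68), and in the G protein gene Gna14. St6galnac3 had 1 of 15, in Msh4, a meiotic gene, from 27 and 12 reads. Trabd2b had 1 of 15 higher, in the transcription factor gene Foxd2, and 2 lower, both in or near genes of the Skint family of epidermal and thymic immunoglobulin-like proteins. Skint11, 161.7 kb from Trabd2b, had 9.07 in ablation and 36.0 in control (0.252-fold, 0.114 to 0.502). Skint10, much further off at 1631.8 kb, had 11.8 and 40.9 (0.288-fold, 0.145 to 0.532) at a peak 13989 bp outside it. The Skint genes form a family of similar copies, and how reads shared between copies were placed is not stated.

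**Figure D5:**
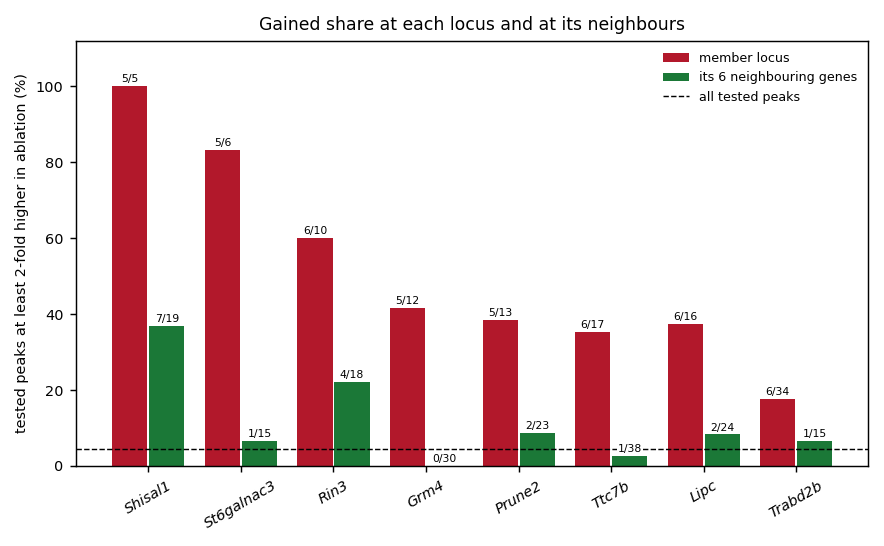
Share of tested peaks at least 2-fold higher in ablation (vertical axis, percent) at each of the 8 loci (red) and at its 6 neighbouring genes (green), with counts above the bars and the share of all tested peaks, 4.48%, as a dashed line. The red bars follow from the choice of loci. Among the green bars Shisal1, with 7 of 19, and Rin3, with 4 of 18, stand highest.

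Relatives and partners of the members were read from 8 lists, with 53 of 59 genes holding a tested peak. Of their 279 peaks 19 (6.81%) were higher and 4 lower, where 4.48% of all tested peaks were higher and 1.88% lower. The median log2 ratio of summed signal was -0.03 against -0.07 over all genes. In the Shisa family 1 of 22 peaks was higher, the only one of Shisal2b, at 29.0 normalized reads in ablation and 7.06 in control, and 1 was lower, in Shisal2a. The other sialyltransferases of the St6galnac family had 1 of 15 higher, in St6galnac2. Among the relatives and partners of Rin3, 6 of 55 were higher, 4 of them in Bin1, a membrane-bending protein whose human form binds RIN3. Bin1 had a sum of 1177 in ablation and 914 in control (1.29-fold, 1.19 to 1.39). The relative Rin2 had 1 of 22 higher and 1 lower, and the adaptor Cd2ap had 1 of 8 higher with a sum of 680.2 in ablation and 841.9 in control (0.808-fold, 0.737 to 0.886). Rab5a, Rab5b and Rab5c, the GTPases that Rin3 activates, had 0 higher.

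The metabotropic glutamate receptors other than Grm4 had 7 tested peaks over 5 genes, 1 of them higher, in Grm8. Grm3 and Grm7 had no tested peak. The relatives of Prune2 had 0 of 11 higher. Among the partners of Ttc7b, Fam126a, a subunit of the same complex, had 3 of 11 higher with a sum of 1448 in ablation and 1634 in control (0.886-fold, 0.830 to 0.944), and Pi4ka itself 1 of 2. Lipases and lipoprotein uptake genes had 3 of 61 higher, 2 of them in the receptor Scarb1 and 1 in Liph. Wnt ligands and genes that handle them had 3 of 76 higher, 2 of them in the co-receptor Lrp5 and 1 in Porcn, and 2 lower, in Lrp6 and Wls.

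The label of the cells was checked at marker loci. All 6 basal epidermal genes had open peaks, with summed signals of 1196 to 2932 in ablation and 1307 to 3144 in control. Their median log2 ratio was -0.07, from -0.35 in Col17a1 to 0.21 in Krt5, with Krt14 at 0.05, Trp63 at -0.02 and Itgb4 at -0.13. Of their 89 peaks 1 was higher, in Krt5, and 3 were lower, 2 in Itga6 and 1 in Col17a1. Of all tested peaks 4.48% were higher and 1.88% lower. The genes of the markers excluded by the sort, Cd34 and Lrig1, had log2 ratios of 0.41 and 0.26. Of their 18 peaks 3 were higher (16.7%, against 4.48% of all tested peaks) and 0 lower. Itga6, which encodes the α6 integrin selected for, stood at -0.27 with 2 of 18 peaks lower. Since Grm4 and Prune2 are known from neurons and Lipc from liver, markers of these tissues were read beside them. The 4 neuronal and glial genes had log2 ratios of -0.53 to 0.17, with 1 of 31 peaks higher, in Snap25, and 3 lower, 2 in Syt1 and 1 in Rbfox3, and in liver Alb had 20.0 in ablation and 20.5 in control and Apoa1 78.9 and 67.7, with no tested peak for Ttr. Immune markers had sums of 39.9 to 355.5 in ablation and 31.8 to 455.9 in control, with 0 of 10 peaks higher. Fibroblast markers had 39.0 to 358.3 and 33.2 to 363.4, with 0 of 9 higher, and melanocyte markers 156.0 to 1481 and 117.8 to 1648, with 0 of 8. Of the endothelial markers Pecam1 had 2531 and 2645, Kdr had 41.7 and 29.6 and Cdh5 had no tested peak, with 0 of 19 higher. The part of such cells in the ratios of the 8 loci was not tested. Suprabasal Krt1 and Krt10 stood at -0.19 and -0.38.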

How the data were processed

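Build mm10 and the programs MACS2 2.1.0.20151222, HTSeq, Bowtie2 2.3.4.2, Trimmomatic and Picard are named, per the submitters' processing notes, without role or settings. The authors deposited 1 table of normalized signal per peak and library. Every value was a whole multiple of 1 step per library (within 0.1 of a read), so whole reads were recovered; 100% of values came out whole. The method behind the factors and the selection of peaks are not stated, nor whether starts count from 0 or 1. Columns were matched by name. The control column carries another number than its sample title, and the other column says Exp. Exact repeats among 116411 rows were merged and 3 mitochondrial peaks left out. Gene bounds, strands and promoter windows came from RefSeq tables of GRCm38.p6. No count model could be fitted with 1 library per group. The steps were tested on simulated reads. The members and lists were chosen with earlier results of these data known. Named were all 8 members with their higher, strongest and lowest peaks, neighbours with a called peak, list genes with one, and the 5 genes most like the members. Ppp3ca, Slit3, Fhod3, Tenm4, Samm50, Golga5, the Rab5 genes, the marker genes and a few further member peaks fall outside that rule and were named after their values were seen. Unused columns numbered 0. Software was Python 3.11.15 with numpy 2.4.6, pandas 2.3.3, scipy 1.17.1 and matplotlib 3.10.9.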

Additional observations from a re-analysis of the deposited data

Results flagged for a closer look

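Peaks on the mitochondrial genome, 3 in number and outside every comparison above, held 31.2% of the reads in peaks in the ablation library and 7.31% in the control library. This was picked out because such reads are not part of the measurement and were more frequent in ablation than in control.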

How the results depend on the processing

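Dividing each library by its total over the whole table, mitochondrial reads included, moved the median of all tested peaks to -0.35 from -0.01 and is the setting with the widest effect. The count of higher member peaks, 44 of 113 as reported, was 22 of 113 under that division and 26 of 82 with the filter at the 25th percentile. It was 27 of 80 with peaks overlapping the gene only, 21 of 79 with the third run of the table only and 15 of 113 at a 3-fold threshold. Of all tested peaks 4.48% were higher as reported, and 1.76%, 2.81%, 4.48%, 2.44% and 0.876% in that order. Over the other settings it lay between 36 and 62. With tested peaks less than 1 kb apart counted once, a choice made after seeing the data, it was 38 of 101. Peaks under the filter did not enter that count. The median log2 ratio of member peaks, 0.66 as reported, was 0.34 with the table total, 0.50 after a loess correction and 0.48 with the third run only. The log2 ratio of the signal summed over the 8 loci, 0.36 as reported, was 0.02 with the table total, 0.45 with the total of nuclear peaks, 0.31 with the stricter filter, 0.25 within genes, 0.27 with the third run and 0.40 with repeats kept. Higher neighbouring peaks, 18 of 182 as reported, numbered 8 of 182 with the table total, 11 of 148 with the stricter filter, 34 of 182 at 1.5-fold and 4 of 182 at 3-fold. The shares of all tested peaks in these 4 settings were 1.76%, 2.81%, 13.0% and 0.876%. The count was 10 of 69 with only the nearest gene on each side, and 22 of 327 (6.73%) over all peaks within 500 kb. By locus, the summed log2 ratio stayed above 0 in 11 of 11 alternatives for Shisal1 (1.67 to 2.11), St6galnac3 (0.41 to 1.60), Rin3 (0.83 to 1.26), Grm4 (0.18 to 0.85) and Prune2 (0.35 to 0.78). The 0.41 of St6galnac3, with the third run only, rests on 1 peak, the one at its start (1.32-fold, 0.93 to 1.89). The value added to both signals does not enter the sums, so alternatives that change it could not move them. The loci were chosen by these ratios, so the tally is a description. The summed log2 ratio fell below 0 with the table total for Ttc7b (-0.10) and Lipc (-0.13). For Trabd2b, at 0.999-fold as reported, it ran from -0.34 to 0.09 over the 11 alternatives. Counts of higher peaks by locus also changed. With the table total Grm4 kept 1, Prune2, Lipc and Trabd2b 2 each, Rin3 and Ttc7b 3 each, Shisal1 4 and St6galnac3 5. With the stricter filter St6galnac3 and Trabd2b kept 1 each, and the other loci 3 to 6. With the third run only St6galnac3 kept 0, and the other loci 2 to 5. The shares of all tested peaks in these settings are given above. The cause was not tested, except that fewer peaks enter the stricter filter, the gene bodies and the third run. No paired analysis was possible because each group has 1 library, and no library could be left out.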
